A study of Mus musculus with 6 samples.

Results

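The transcripts described here are 9 genes of the red cell lineage, measured in the embryonic ductus arteriosus (DA), the short artery that joins the aorta and the pulmonary artery before birth. They were taken by symbol from a table of 23997 genes. The list holds the adult alpha-globin genes *Hba-a1* and *Hba-a2*, the embryonic globin genes *Hba-x*, *Hbb-y* and *Hbb-bh1*, the heme enzyme gene *Alas2*, the anion exchanger gene *Slc4a1* and the transcription factor genes *Klf1* and *Gata1*. These genes were chosen by earlier readings of the same expression values, made to describe fetal blood content in each library, so differences between the genotypes for them are given below as a description, with no test. RNA of the dissected DA at E17.5 was sequenced in bulk from 3 wild-type (WT) libraries and 3 knockout (KO) libraries of the genotype Prdm6f/f; SM22-Cre, all from C57BL/6 mice without treatment. The titles number the libraries WT0, WT1, WT2, KO0, KO1 and KO2. The SM22-Cre transgene drives recombination in smooth muscle cells. The WT libraries are described as littermates, and whether they carried floxed alleles or Cre, and whether a library is 1 embryo or a pool, is not given in the sources used here. P-values therefore measure the spread between these libraries, which may be technical.

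Red cells of the mouse embryo arise in waves. Primitive erythroid cells form in the yolk sac and carry the embryonic globins zeta (*Hba-x*), epsilon-y (*Hbb-y*) and beta-h1 (*Hbb-bh1*), and definitive red cells made later by the fetal liver carry adult alpha- and beta-globin. Each hemoglobin molecule pairs alpha-type with beta-type chains around heme, and young red cells keep large amounts of globin mRNA after most other transcripts are gone. The wall of an artery is not a site of red cell formation, and a dissected vessel can hold blood.

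The libraries differed in ways other than genotype. The female-specific RNA *Xist* was at 67.0 FPKM (read fragments scaled to transcript length and to the size of the library) in WT0, 81.0 in KO0 and 82.8 in KO1, and at most 0.0530 in the other 3. The Y-linked gene *Ddx3y* was at 20.1 to 26.4 FPKM in WT1, WT2, KO0 and KO2, so KO0 was high in both. Summed FPKM of heart muscle markers was 1243 in WT1 and 1312 in KO2, against 53.1 to 410.4 in the other libraries. The ribosomal precursor RNA *Rn45s* was listed at 0 in every WT library and at 3060 to 4520 FPKM in the KO libraries. *Prdm6* itself was at 41.7, 48.4 and 19.8 FPKM in WT0, WT1 and WT2 and at 48.6, 27.1 and 15.4 FPKM in the libraries labelled KO0, KO1 and KO2. The groups overlapped, with the highest value in a KO library, and a value over the whole gene does not show the loss of a floxed part, so *Prdm6* did not check the labels. Upper quartiles of FPKM, with listed zeros included, ran from 10.4 to 10.8. Relative read depth, worked out from the steps between low FPKM values, ran from 0.933 to 1.20 of that of WT1. Summed FPKM over all genes was less even, from 412183 in WT1 to 818503 in KO2.

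The stretches of 150 bases before the annotated starts of *Hba-a1*, *Hba-x*, *Hbb-y*, *Alas2* and *Klf1* are shown. These genes cover the adult and embryonic globins, the heme enzyme and, of the regulators in the list, *Klf1* but not *Gata1*. The adult globin, *Alas2* and *Slc4a1* had a like order of libraries. The sequences are from RefSeq on build GRCm38.p6, read 5′ to 3′ on the strand of the gene. Capitals mark 4 short motifs on either strand: GATAA, the core letters read by GATA factors such as Gata1, CACCC, the core letters read by Krüppel-like factors such as Klf1, CCAAT, and TATAA. No marked motifs overlapped between kinds.
Hba-a1, chr11:32283522-32283671, plus strand: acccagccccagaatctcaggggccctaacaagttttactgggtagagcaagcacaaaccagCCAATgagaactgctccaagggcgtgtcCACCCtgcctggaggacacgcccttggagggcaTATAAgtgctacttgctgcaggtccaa
Hba-x, chr11:32276450-32276599, plus strand: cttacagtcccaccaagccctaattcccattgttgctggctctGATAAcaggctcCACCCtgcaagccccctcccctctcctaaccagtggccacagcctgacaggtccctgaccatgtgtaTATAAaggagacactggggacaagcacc
Hbb-y, chr7:103853208-103853357, minus strand: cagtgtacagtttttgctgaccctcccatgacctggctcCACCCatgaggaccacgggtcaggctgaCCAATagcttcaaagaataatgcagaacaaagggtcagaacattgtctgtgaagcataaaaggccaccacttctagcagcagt
Alas2, chrX:150547267-150547416, plus strand: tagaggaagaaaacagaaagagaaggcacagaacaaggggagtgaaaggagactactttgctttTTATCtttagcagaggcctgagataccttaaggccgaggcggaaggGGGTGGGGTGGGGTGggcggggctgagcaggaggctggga
Klf1, chr8:84901832-84901981, plus strand: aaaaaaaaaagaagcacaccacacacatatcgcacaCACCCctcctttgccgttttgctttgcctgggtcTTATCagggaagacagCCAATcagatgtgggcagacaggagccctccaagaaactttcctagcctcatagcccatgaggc

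Of the 9 genes, 7 had a promoter entry, and *Slc4a1* and *Hbb-bh1* had none. The window of *Gata1* (chrX:7967911-7968060), not shown, held CACCC and none of the other motifs. It lies inside the span given for that gene below, not before it. CACCC was present in 7 of the 7 windows and in 37.4% of 32851 mouse promoter windows of the same length. CCAAT was present in 4 of 7, against 24.5% of all promoters, GATAA in 3 of 7, against 13.3%, and TATAA in 3 of 7, against 14.2%. The windows are not independent, since the 300-base promoter entries of *Hba-a1* and *Hba-a2* share an identical run of 297 bases. A match of letters is a description of the window and does not show that a factor was bound there.

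*Hba-a1* (chr11:32283672-32284486, plus strand, build GRCm38) encodes adult alpha-globin and was among the most abundant transcripts of the vessel. It was at 3061, 6028 and 3237 FPKM in WT0, WT1 and WT2 and at 9312, 19472 and 3286 FPKM in the libraries labelled KO0, KO1 and KO2. KO1 and KO0 were the highest and KO2 lay among the WT libraries, so the groups overlapped. The mean was 4109 ± 1664 FPKM in WT and 10690.1 ± 8181 FPKM in KO (SD, n = 3 each), and limma, fitted to log2(FPKM + 0.1), gave a log2 fold change of 1.11 with a standard error of 0.67. It was 0.50 without KO1 and 1.78 without KO2. The highest library exceeded the lowest by 6.36-fold. Among all genes ordered by FPKM, *Hba-a1* ranked 10, 2 and 7 in the WT libraries and 4, 3 and 9 in the KO libraries. Since it was already near the top everywhere, quantile normalization, which gives every library the same set of values, left a log2 fold change of 0.07.

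Its copy *Hba-a2* (chr11:32296492-32297310, plus strand) was listed at 0 in all 6 libraries. The copies cannot be told apart by short reads over most of their length: of the 45-base windows of the *Hba-a2* mRNA, 45 being the shortest read that was kept, 88.0% (449 of 510) also occur in the *Hba-a1* mRNA, and 68.5% of the *Hba-a1* windows (449 of 655) occur in *Hba-a2*. The values of *Hba-a1* may thus hold reads of both genes, and the 0 of *Hba-a2* does not show that it was silent. In bulk tissue, fewer cells of a type and less RNA per cell cannot be told apart, which holds for every level given here.

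**Figure D1:**
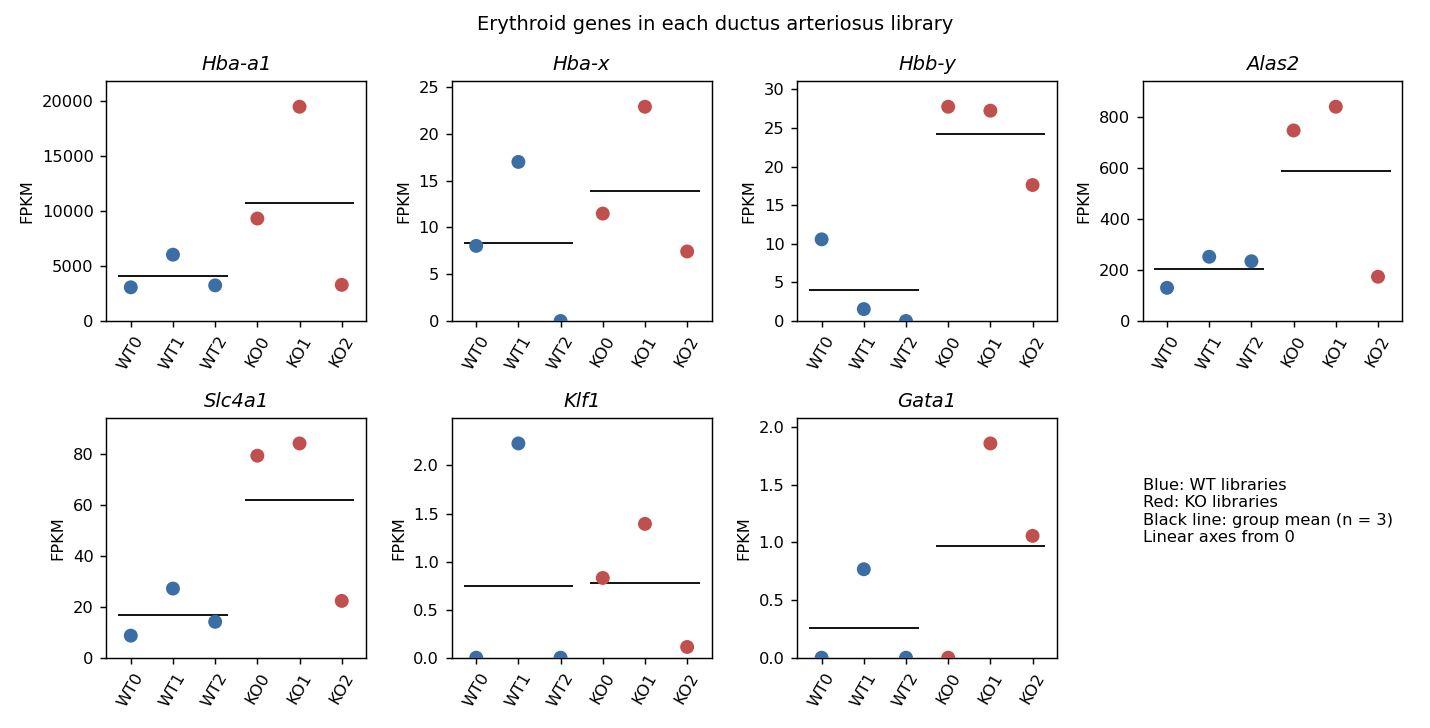
FPKM of the 7 erythroid genes above 0 in some library, on linear axes that start at 0 (blue points, WT libraries; red points, KO libraries; black lines, group means, n = 3). KO0 and KO1 lie highest for *Hba-a1*, *Alas2* and *Slc4a1*, and KO2 lies among the WT libraries for these genes.

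Embryonic globins were present at low levels. *Hba-x* (chr11:32276600-32278116, plus strand), the zeta-globin gene upstream of the adult alpha genes, was at 8.02, 17.0 and 0 FPKM in WT0, WT1 and WT2 and at 11.5, 22.9 and 7.43 FPKM in KO0, KO1 and KO2. The groups overlapped, with means of 8.34 ± 8.50 FPKM in WT and 13.9 ± 8.02 FPKM in KO. The log2 fold change of 2.39 (standard error 1.74) rested on the 0 in WT2, and it was 0.10 without that library.

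*Hbb-y* (chr7:103851754-103853207, minus strand), which encodes epsilon-y, the main beta-type chain of primitive red cells, was at 10.6, 1.54 and 0 FPKM in WT0, WT1 and WT2 and at 27.8, 27.3 and 17.6 FPKM in KO0, KO1 and KO2. It was the only tested gene of the list for which every KO library lay above every WT library. Its means were 4.04 ± 5.72 FPKM in WT and 24.2 ± 5.72 FPKM in KO, with a log2 fold change of 4.30 and a standard error of 1.47. Leaving out WT2, which had the 0, brought the log2 fold change to 2.51, and leaving out WT0 raised it to 5.88. *Hbb-bh1* (chr7:103841638-103843162, minus strand), the other embryonic beta-type gene of the list, was listed at 0 in every library. A listed 0 in this table can be a failed estimate: of 3506 genes with a mean of at least 20 FPKM, 34 to 61 were listed at 0 in any single library. Over all genes, WT2 had the most listed at 0, with 11886 against 8338 to 10313 in the other libraries.

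*Alas2* (chrX:150547417-150570622, plus strand) encodes the erythroid form of the first, rate-limiting enzyme of heme synthesis. It was at 129.9, 251 and 234 FPKM in WT0, WT1 and WT2 and at 746, 839 and 173 FPKM in KO0, KO1 and KO2. KO0 and KO1 stood well above the other 4 libraries, and KO2 was lower than WT1 and WT2. The means were 205 ± 65.7 FPKM in WT and 586 ± 360.4 FPKM in KO, for a log2 fold change of 1.28 (standard error 0.59), which ran from 0.87 without KO1 to 2.01 without KO2.

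*Slc4a1* (chr11:102348820-102365281, minus strand) encodes band 3, the chloride-bicarbonate exchanger that also anchors the red cell membrane skeleton. It was at 8.67, 27.2 and 14.1 FPKM in WT0, WT1 and WT2 and at 79.5, 84.3 and 22.3 FPKM in KO0, KO1 and KO2. The order was as for *Alas2* at the top, with KO1 and KO0 first and WT1 next, and KO2 lay between WT1 and WT2. The means were 16.7 ± 9.52 FPKM in WT and 62.0 ± 34.5 FPKM in KO, for a log2 fold change of 1.82 with a standard error of 0.59.

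The regulators were close to the lower end of the scale. *Klf1* (chr8:84901982-84905291, plus strand), the Krüppel-like factor that activates adult beta-globin, was at 0, 2.23 and 0 FPKM in WT and at 0.830, 1.39 and 0.112 FPKM in KO. *Gata1* (chrX:7959260-7976663, minus strand), the master factor of erythroid and megakaryocyte genes, was at 0, 0.766 and 0 FPKM in WT and at 0, 1.86 and 1.06 FPKM in KO. Both groups overlapped for both genes. Their means over the 6 libraries were under the minimum of 1 FPKM set for testing, so no fold change is given.

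Altogether 5 of the 9 genes passed the minimum, 2 (*Klf1* and *Gata1*) were detected below it and 2 were at 0 throughout. Genes that pass on a mean over all libraries can do so through the group in which they are high, and the 5 were chosen with this contrast known. Their log2 fold changes were all positive, beside 55.6% of all 12955 tested genes, with a median of 1.82 beside 0.07. KO lay wholly above WT for 1 of the 5, beside 8.21% of all tested genes, and nothing is read from this count, because the same contrast chose the genes. Summed over the list, the level was 3218, 6328 and 3485 FPKM in WT0, WT1 and WT2 and 10178, 20448 and 3508 FPKM in KO0, KO1 and KO2, and almost all of it was *Hba-a1*.

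Levels per length can be set against each other within a library. For transcripts that come from red cells alone, this takes out the amount of erythroid RNA in the library. How far other cells of the vessel added to the levels set against alpha-globin was not tested. Adult beta-globin was summed over *Hbb-b1*, *Hbb-bs* and *Hbb-bt*, a sum chosen after the values were seen, since reads of such copies can be split between them. Of the 45-base windows of *Hbb-bs*, 66.1% occur in *Hbb-bt*. *Hbb-b1*, a large part of the sum, was not compared in this way, so how far it shares reads with *Hbb-bt* was not tested. The sum was 1149, 2427 and 1255 FPKM in WT0, WT1 and WT2 and 5288, 7075 and 1484 FPKM in KO0, KO1 and KO2. As a share of adult alpha-globin it was 37.5%, 40.3% and 38.8% in WT and 56.8%, 36.3% and 45.2% in KO. The beta level thus varied 6.16-fold between libraries while its ratio to alpha varied 1.56-fold, and the ratio overlapped between the groups.

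Other genes were set against alpha-globin in the same way. *Fech*, the last enzyme of heme synthesis, ranged from 0.743% to 1.17% of it, 1.57-fold, much as beta-globin did, and *Slc25a37*, a mitochondrial iron carrier, from 0.932% to 1.87%, 2.01-fold. *Alas2* was 4.24%, 4.17% and 7.23% of adult alpha-globin in WT and 8.01%, 4.31% and 5.27% in KO, a range of 1.92-fold. *Slc4a1* was 0.283%, 0.451% and 0.436% in WT and 0.853%, 0.433% and 0.680% in KO, a range of 3.01-fold. The ratios of *Alas2* and *Slc4a1* were highest in KO0, as were those of beta-globin, *Fech* and *Slc25a37*, and all overlapped between the groups. These ratios share their denominator, adult alpha-globin, which was at 9312 FPKM in KO0 and 19472 FPKM in KO1, so their common peak is not particular to any of these genes. Zeta was a small part of the alpha-type chains, with *Hba-x* at 0.262%, 0.282% and 0% of adult alpha-globin in WT and 0.123%, 0.118% and 0.226% in KO. *Hbb-y* was 0.921%, 0.0636% and 0% of adult beta-globin in WT and 0.525%, 0.385% and 1.19% in KO. So the KO libraries with the most alpha-globin, KO0 and KO1, had a lower zeta share than WT0 and WT1. KO2 lay between, and WT2, at 0%, was the lowest. For *Hbb-y* the order was another, with the share in KO0 and KO1 above WT1 and WT2 and below WT0 and KO2. The mean log2 ratio of *Hba-x* to adult alpha-globin was higher in KO by 1.28 with 0.1 FPKM added to both levels, but without WT2, where *Hba-x* was at 0, it was lower, at -0.87. The difference also followed the amount added, at 0.21 with 1 FPKM and 2.39 with 0.01 FPKM, so it gives no stable size.

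**Figure D2:**
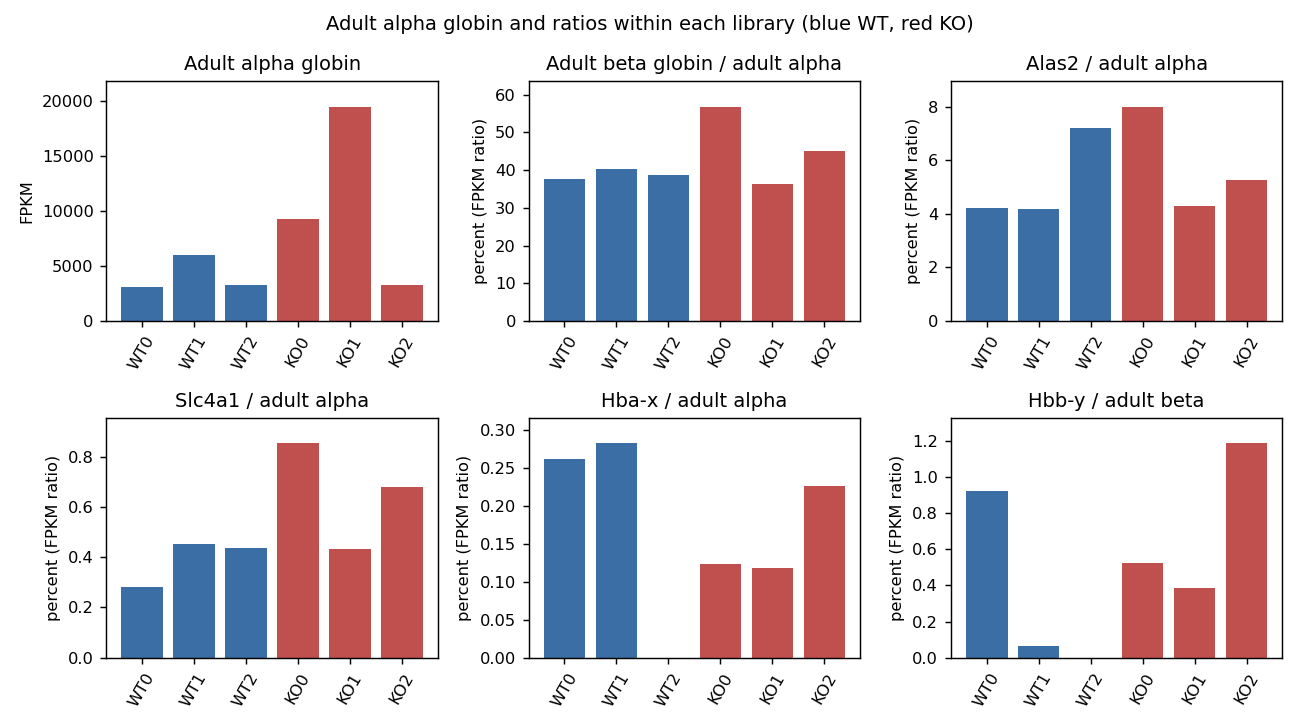
FPKM of adult alpha-globin and, as a percent of it, of adult beta-globin, *Alas2*, *Slc4a1* and *Hba-x*, and *Hbb-y* as a percent of adult beta-globin (1 bar per library, blue WT, red KO, axes from 0). Adult beta-globin runs from 36.3% to 56.8% of alpha, and WT and KO overlap in every ratio drawn.

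The rest of the red cell program was described over 61 further erythroid genes in 5 lists, of which 58 were in the table and 48 were tested. These lists were also chosen with earlier results of these data known. Genes of the same cells can vary together, so the counts below are a description and not independent support. None passed the adjusted p of 0.05 in limma, beside 0.00772% of all tested genes (1 gene, *Rn45s*). At an unadjusted p under 0.05, 7 of 48 (14.6%) were higher in KO, beside 3.31% of all tested genes, and 0 were lower, beside 4.97%. KO lay wholly above WT for 5 of 48 (10.4%), beside 8.21% of all tested genes, and wholly below for 0, beside 7.84%. The log2 fold change was positive for 40 of 48 (83.3%), beside 55.6% of all tested genes, and negative for 8. Its median was 0.70, beside 0.07 for all tested genes. The count of 7 rested on single libraries: it was 1 without KO0, 1 without KO1, 3 without WT0, 13 without WT1 and 14 without KO2. Without WT1 and KO2, the libraries highest in heart muscle transcripts, it was 20, a setting chosen after seeing the data.

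Among the adult beta-globins, *Hbb-bt* was at 613, 1259 and 857 FPKM in WT0, WT1 and WT2 and at 2275, 3912 and 788 FPKM in KO0, KO1 and KO2 (log2 fold change 1.14, standard error 0.57, limma adjusted p = 0.631). *Hbb-b1* was at 492, 1168 and 398 FPKM in WT and at 2831, 3164 and 697 FPKM in KO (1.59, standard error 0.64, adjusted p = 0.591). Both had the order of *Hba-a1* at the top, KO1 before KO0 before WT1. *Hbb-bs* was at 44.2 FPKM in WT0 and 182 FPKM in KO0 and at or near 0 in the other 4 libraries. The theta gene *Hbq1b* was above 0 in WT1 alone, at 0.401 FPKM.

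All 11 other heme synthesis genes were tested. The log2 fold change was positive for 9 (81.8%, beside 55.6% of all tested genes) and negative for 2, with a median of 0.44. *Slc25a37* (mitoferrin), which brings iron into mitochondria, was at 28.5, 69.1 and 31.6 FPKM in WT and at 175, 182 and 39.3 FPKM in KO (log2 fold change 1.44, standard error 0.62, adjusted p = 0.601). *Fech*, which inserts the iron into the ring, was at 28.4, 61.7 and 35.6 FPKM in WT and at 109, 145 and 31.1 FPKM in KO. *Urod*, an enzyme of the pathway used in every cell, differed less, at 33.2, 39.1 and 15.4 FPKM in WT and 42.2, 64.2 and 24.9 FPKM in KO. *Tmem14c*, a mitochondrial porphyrin transporter, had a log2 fold change of 0.025 with a standard error of 0.49.

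Of 15 red cell membrane genes, 12 were tested. Of these, 10 had a positive log2 fold change (83.3%, beside 55.6% of all tested genes) and 2 a negative one (median 0.97). *Epb41*, protein 4.1 of the membrane skeleton, was at 52.3, 106 and 77.6 FPKM in WT and at 228, 258 and 70.8 FPKM in KO. *Sptb*, erythroid beta-spectrin, was at 3.05, 9.83 and 5.90 FPKM in WT and at 10.9, 11.5 and 8.58 FPKM in KO. *Gypc*, a glycophorin found in many tissues, had the other sign, with 9.95, 11.4 and 22.4 FPKM in WT and 5.01, 7.25 and 12.7 FPKM in KO (log2 fold change -0.81, standard error 0.45, adjusted p = 0.652).

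Of 11 other transcription factors and cofactors, 9 were tested, with a median log2 fold change of 0.35. *E2f2*, a cell cycle factor of maturing erythroblasts, was at 2.78, 5.35 and 4.46 FPKM in WT and at 12.1, 14.7 and 6.04 FPKM in KO (1.32, standard error 0.46, adjusted p = 0.553). *Ldb1*, *Zfpm1* and *Lmo2*, partners of Gata1 that also work in other cells, had log2 fold changes of -0.18, 0.14 and 0.35, each smaller than its standard error. Of the 16 cytosolic, iron and receptor genes, 13 were tested. At an unadjusted p under 0.05 in limma, 0 were higher in KO, beside 3.31% of all tested genes, and 0 lower, beside 4.97%. In the other lists, 1 of 3 globin, 1 of 11 heme synthesis, 3 of 12 membrane and 2 of 9 transcription factor genes were higher, and 0 lower. The log2 fold change was positive for 11 of the 13 cytosolic, iron and receptor genes (84.6%, beside 55.6% of all tested genes) and negative for 2 (median 0.85). *Bpgm*, which makes the 2,3-bisphosphoglycerate that lowers the oxygen affinity of hemoglobin, was at 42.7, 66.2 and 49.0 FPKM in WT and at 152, 157 and 43.3 FPKM in KO. *Prdx2*, an abundant peroxidase of red cells, spread less, at 161, 201 and 173 FPKM in WT and 295, 207 and 174 FPKM in KO. *Bnip3l*, which clears mitochondria from reticulocytes, and *Ube2l6* had log2 fold changes of 0.75 and 0.67.

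**Figure D3:**
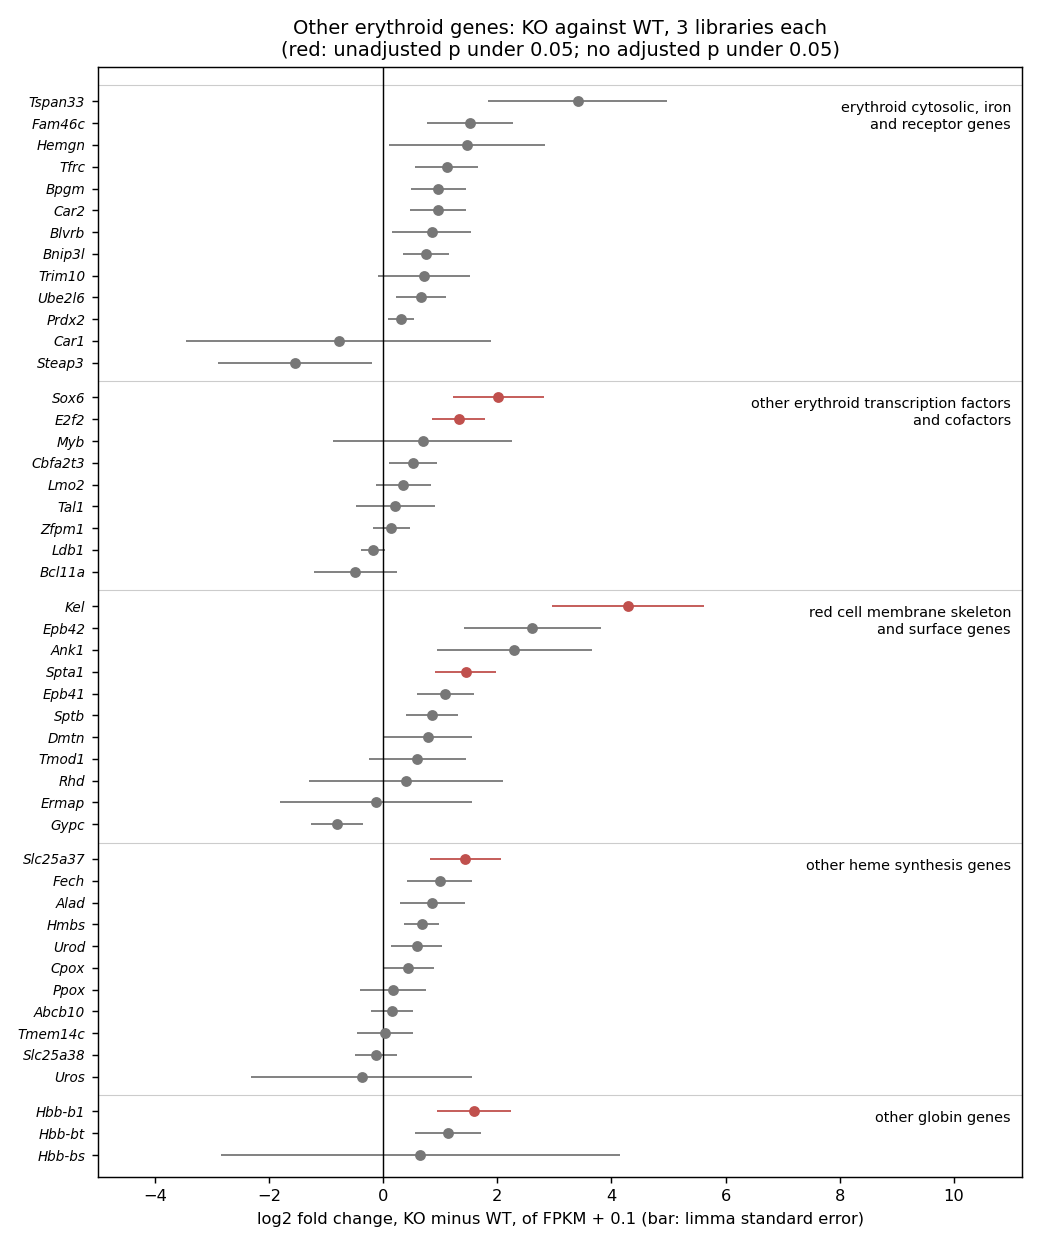
Log2 fold change (KO minus WT) of 47 tested genes of the 5 further erythroid lists, with bars of 1 standard error from the limma fit and an unadjusted p under 0.05 in red. Of the 47, 39 lie to the right of 0 and 8 to the left, and none has an adjusted p under 0.05. Over all tested genes, 55.6% had a positive log2 fold change.

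The library profiles were also set side by side. The median over the 9 genes, *Hba-a2* and *Hbb-bh1* included as flat, of the mean-centred log2(FPKM + 0.1) values was -0.91, 0.00 and -0.99 in WT0, WT1 and WT2 and 1.07, 1.76 and 0.00 in KO0, KO1 and KO2. The 0.00 of WT1 and KO2 is the value of the flat genes, which hold no measurement. Over the 7 genes above 0 in some library, a choice made after seeing the data, the median was -1.24, 0.07 and -1.82 in WT0, WT1 and WT2 and 1.09, 1.78 and -0.33 in KO0, KO1 and KO2. In both profiles KO1 and KO0 were highest and WT2 and WT0 lowest. Among the 8 tested genes closest to the profile of all 9, by root mean square log2 distance over the 6 libraries, were *6030443J06Rik* (0.339), *E2f2* (0.355), *Hbb-b1* (0.356), *Hbb-bt* (0.363), *Slc25a37* (0.372), *Gja4* (0.384) and *Commd7* (0.384). Of these 7, 4 belong to the erythroid lists. *Gja4*, which encodes connexin 37 of arterial endothelium, does not, and was at 19.9, 22.8 and 17.9 FPKM in WT and 55.8, 63.0 and 28.4 FPKM in KO. Only 4 of the 8 were also among the 8 closest to the profile of the 7 detected genes, *Hbb-b1*, *Slc25a37* and *6030443J06Rik* among them and *Gja4* not, so the list of nearest genes depended on the flat genes.

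**Figure D4:**
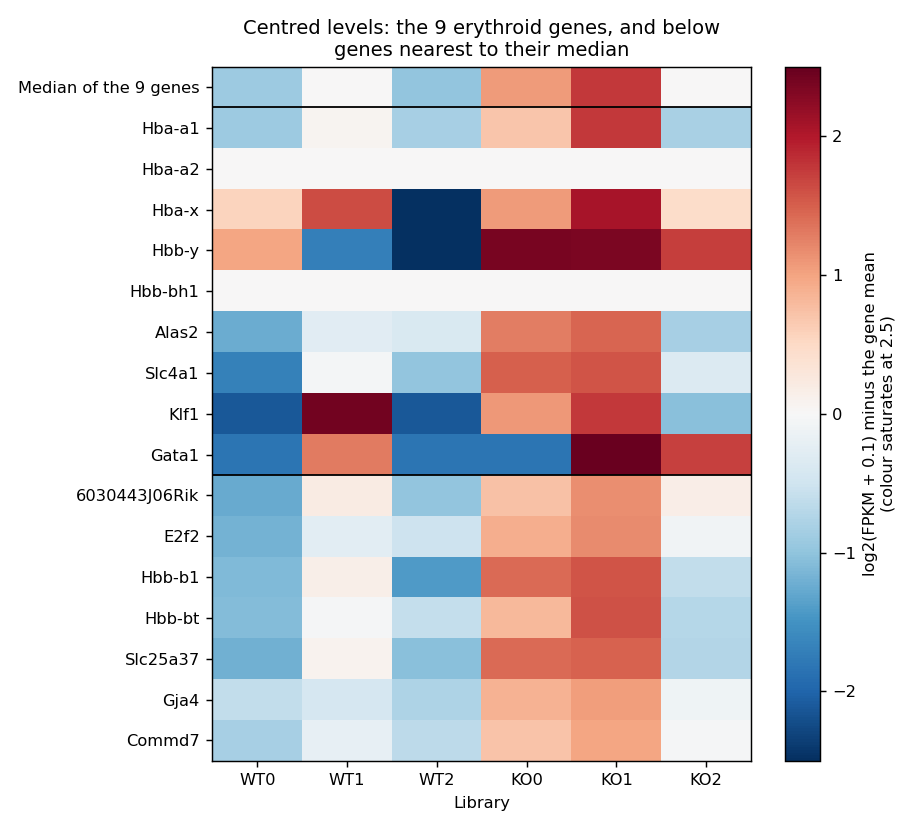
Color map of log2(FPKM + 0.1) minus each gene's mean over the libraries (red above, blue below, saturating at the ends of the scale), with the median of the 9 erythroid genes at the top, the 9 genes under it (*Hba-a2* and *Hbb-bh1* flat) and 7 of the nearest other genes at the bottom. The median is highest in KO1 (1.76) and KO0 (1.07) and lowest in WT2 (-0.99) and WT0 (-0.91).

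Markers of other cells were read in the same libraries, since fetal blood and the dissected tissue hold several cell types. None of the 8 marker lists had a gene that passed the adjusted p of 0.05 in limma, and none had a marker at 0 in all 6 libraries. Of 6 tested platelet and megakaryocyte markers, 2 were higher in KO at an unadjusted p under 0.05 (33.3%, beside 3.31% of all tested genes), and their summed level was 9.49 to 33.3 FPKM in WT and 20.4 to 60.2 FPKM in KO. Neutrophil markers summed to 1.35 to 49.1 FPKM in WT and 5.68 to 65.6 FPKM in KO. Of 4 tested, 1 was higher in KO at an unadjusted p under 0.05 (25%, beside 3.31% of all tested genes). Macrophage markers summed to 38.0 to 155 FPKM in WT and 32.1 to 116 FPKM in KO, and endothelial markers to 335 to 458 FPKM and 389 to 622 FPKM, with 0 at an unadjusted p under 0.05 of 8 and of 7 tested. KO2 had the highest platelet and neutrophil sums, 60.2 and 65.6 FPKM, while its erythroid sum was near those of WT0 and WT2.

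Smooth muscle markers were mostly lower in KO. Of 8 tested, 5 were lower in KO at an unadjusted p under 0.05 (62.5%, beside 4.97% of all tested genes), with sums of 5634.5, 2798 and 2454 FPKM in WT0, WT1 and WT2 and 2379, 1778 and 870.1 FPKM in KO0, KO1 and KO2. WT0, with the most smooth muscle transcript, had the least summed erythroid transcript, but KO2, with the least smooth muscle transcript, was not high in erythroid genes. Of 9 tested Schwann cell markers, 5 were higher at an unadjusted p under 0.05 (55.6%, beside 3.31% of all tested genes), with sums of 14.9 to 40.3 FPKM in WT and 47.7 to 174 FPKM in KO. Heart muscle markers summed to 53.1, 1243 and 410.4 FPKM in WT and 144, 108 and 1312 FPKM in KO, and fetal liver markers to 5.40, 67.8 and 47.4 FPKM in WT and 14.4, 3.22 and 89.1 FPKM in KO. KO0 and KO1, highest in erythroid transcripts, were thus low in heart muscle and liver markers, but so was WT0, which had the lowest erythroid sum. Without WT1 and KO2, the median log2 fold change of the 5 tested erythroid genes was 2.88 in place of 1.82. The part of these other cells, of the amount of blood left in each dissected vessel and of *Rn45s* in the erythroid differences was not tested.

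**Figure D5:**
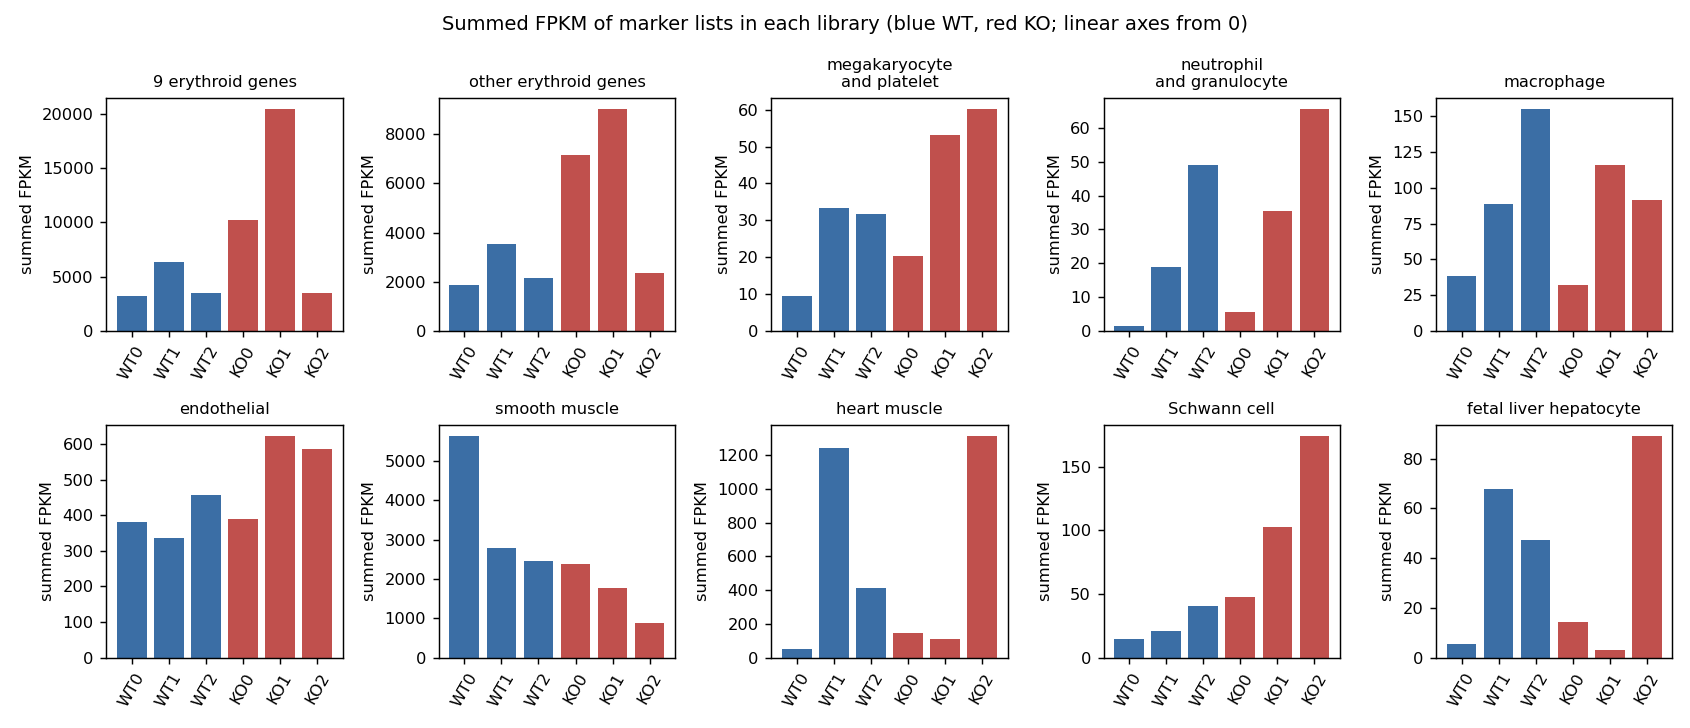
Summed FPKM of the 9 erythroid genes, of the further erythroid genes and of the 8 marker lists of other cell types (1 bar per library, blue WT, red KO, linear axes from 0). The erythroid sum is highest in KO1 (20448) and KO0 (10178), whereas the heart muscle sum is highest in KO2 (1312) and WT1 (1243).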

How the data were processed

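Bulk RNA-Seq of E17.5 DA was analysed in 3 WT and 3 KO libraries. Per the study's methods, the authors kept reads of at least 45 bases after quality trimming, aligned them to mm10 with TopHat2 and deposited FPKM per gene and library, made with Cufflinks; versions are not given in the sources used here. Read counts were not analysed here, and 0 columns were left without a sample. The study's Cuffdiff test needs reads and was not repeated. Genes with a mean of at least 1 FPKM (12955 of 23997) were compared on log2(FPKM + 0.1) with limma 3.58.1 in R 4.3.3 (mean-variance trend, two-sided). P-values were adjusted over all tested genes by the Benjamini-Hochberg method with a threshold of 0.05. The fit was tried on simulated normal values drawn independently for each gene, which held no listed zeros and no profile shared between genes. On log2(FPKM + 0.1) a fold change of a low gene depends on the 0.1 added: it is drawn in where all values are above 0, and a listed 0 can enlarge it, as for *Hba-x* and *Hbb-y*. Ratios and profiles were computed in Python 3.11.15.

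The 9 members and all lists were chosen with earlier results of these data known. Named were the 9 members, up to 4 genes of each further erythroid list by highest mean FPKM and any with an adjusted p under 0.05, the 8 genes nearest to the median profile, and *Prdm6*. A gene that met this rule is not reported here, though it is counted. Marker lists of other cells are given by counts and sums. *Xist*, *Ddx3y* and *Rn45s* were named after their values were seen. A median planned over all 9 members could be computed for the 5 tested ones. The log2 ratio of *Hba-x* to adult alpha-globin took 0.1 FPKM added to both levels because *Hba-x* was at 0 in WT2; ratios in percent had nothing added. Of the further erythroid genes, 3 were not found by symbol, and 3 list genes were matched through older symbols. Promoters were read from RefSeq on GRCm38.p6, shared 45-base windows from GENCODE vM21 transcripts, and positions from the RefSeq annotation of GRCm38. Alternatives were other pseudocounts (1 and 0.01), filters (at least 5 FPKM, or none), quantile and upper quartile scaling, no trend, a replicate block, and leaving out each library or, added after seeing the data, both libraries highest in heart muscle transcripts.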

Additional observations from a re-analysis of the deposited data

How the results depend on the processing

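The 5 tested erythroid genes kept a positive log2 fold change under every alternative run, though that of *Hba-x* was only 0.10 without WT2. Since they were chosen with this contrast known in the same libraries, the kept sign is a description and no support. Their median ran from 1.32 (pseudocount of 1) to 2.88 (without WT1 and KO2), or from 1.40 to 2.45 leaving out 1 library at a time, beside 1.82. For *Hba-a1* the lowest value was 0.07 under quantile normalization, which gives all libraries the same top values. The count of genes passing the adjusted p over all tested genes was 1, became 2 without the mean-variance trend (*Brinp3* added) and 3 without WT1 and KO2, and ran from 1 to 3 leaving out 1 library at a time. No further erythroid gene passed under any of the 15 alternatives. The number of them higher at an unadjusted p under 0.05, 7 as reported, was 4 with at least 5 FPKM and 11 with upper quartile scaling, and ran from 1 to 14 leaving out 1 library at a time. Upper quartile scaling moved the median of all tested genes from 0.07 to 0.22. Whether the numbers 0 to 2 pair the libraries could not be decided from 3 libraries per group. Same-numbered WT and KO libraries had correlations of deviations of 0.12, -0.076 and -0.0088, and the other pairs ran from -0.12 to 0.14. With a replicate block the count over all genes was 1, the median of the erythroid genes was 1.82, and 15 further erythroid genes were higher and 1 lower at an unadjusted p under 0.05. The ratio of *Hba-x* to adult alpha-globin changed sign without WT2 (-0.87 in place of 1.28) and was 0.21 with a pseudocount of 1 and 2.39 with 0.01. Values below 1 FPKM and listed zeros limit what can be said of *Klf1*, *Gata1*, *Hba-a2* and *Hbb-bh1*.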
